A study of Homo sapiens with 12 samples.

Results

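The transsulfuration and glutathione genes are 8 of the 23269 gene symbols in the deposited tables, namely CTH, CBS, GCLC, GCLM, GSS, GSR, GPX1 and GPX4. They were chosen by their place in cysteine synthesis, glutathione synthesis, glutathione reduction and glutathione use, with the authors' fold changes for these samples already known, and all 8 symbols were found. The cells were HEK293T, an established human embryonic kidney line (the growth protocol writes HEK293), labelled as wild type. They received vehicle (DMSO) or 10 µM of the phenylhydrazone AA263 or of its analogs AA263yne and AA263-5 for 6 h, with 3 samples in each of the 4 groups and 12 samples in all. AA263yne differs from AA263 in carrying an alkyne where the parent has a nitro group.

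Homocysteine from the methionine cycle is joined to serine by CBS, and CTH splits the product to release cysteine. Cysteine is then ligated to glutamate by glutamate cysteine ligase, whose catalytic subunit is GCLC and whose modifier subunit is GCLM, and GSS adds glycine to give glutathione. GPX1 and GPX4 spend glutathione on the reduction of peroxides, and GSR reduces its oxidized form back to glutathione with NADPH. Glutathione is the main small thiol of the cytosol. The rate of its synthesis is set largely by glutamate cysteine ligase and by the supply of cysteine.

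The values used here are the authors' mean normalized value of each gene over all samples, vehicle and treated together. The 3 tables hold the same mean for every row (largest difference 0), so these values describe the level of a gene in the experiment as a whole and carry no difference between compounds. Per-sample values were not analysed here. The methods give a nominal read number, but the column used shows neither the depth reached in each library nor the spread between samples nor the separate level in vehicle, so no neighbors in the order of levels can be said to differ beyond that spread, and no test between groups was made. The means of all rows summed to 36.6 M. Of the marker genes looked up as a check of the label, NEFL, NEFM and PAX2 were those chosen for HEK293. The neurofilament genes NEFL and NEFM, known to be expressed in HEK293 cells, had means of 2225 and 3786. The renal transcription factor PAX2 had 27.7 and exceeded only 40.8% of the rows. The hepatocyte genes ALB (1.30), APOA1 (4.79) and TTR (1.25), the leukocyte gene PTPRC (0.544) and the endothelial gene PECAM1 (0.687) had low means. The highest of these, that of APOA1, exceeded 26.7% of the rows. Of the collagen genes, looked up as fibroblast markers, COL1A1 had 397 and exceeded 62.4% of the rows, and COL3A1 had 14.3 and exceeded 35.7%. PAX2 and COL1A1 thus did not go with the label.

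All 8 genes lay above the median row of the table, which had a mean of 99.5. Their means ran from 1370 for GCLC to 10092 for GPX4, a 7.36-fold range, and together they made up 0.0893% of the sum over all rows. The lowest of them, GCLC, exceeded 78.6% of the rows with a gene symbol and the highest, GPX4, exceeded 97.7%.

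**Figure D1:**
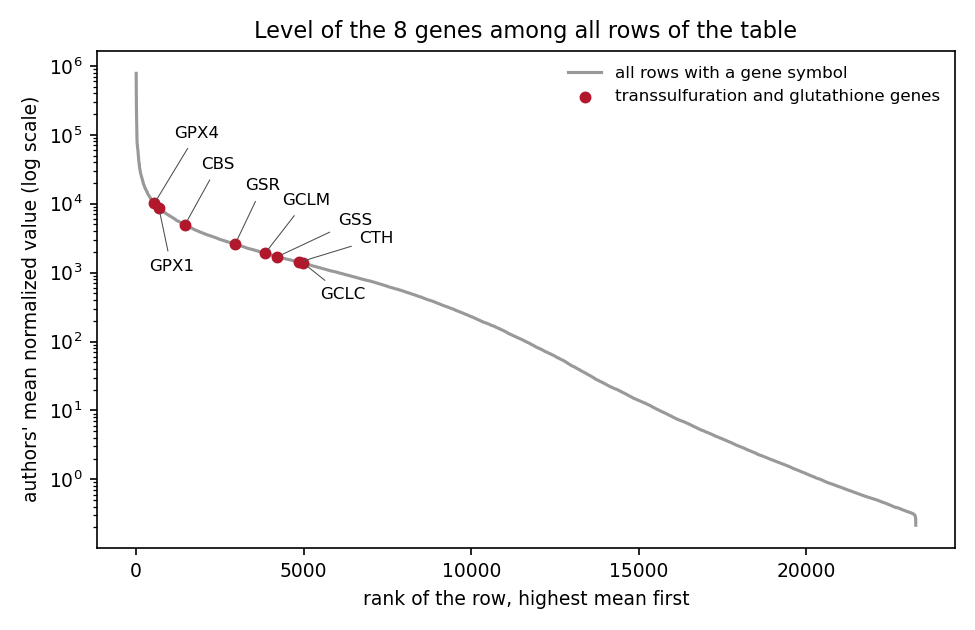
The authors' mean normalized value (vertical axis, log scale) of every row with a gene symbol is plotted against its rank, highest first (horizontal axis). The 8 genes (red points) lie between rank 542 (GPX4) and rank 4991 (GCLC) of 23269 rows.

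GPX4 and GPX1 had the highest means of the 8 on the rows as deposited. CBS was higher than either (12002) once CBSL, the row of its near-identical copy, was added. GPX4, which reduces lipid hydroperoxides within membranes and is known for its role against ferroptosis, had a mean of 10092. GPX1, the abundant peroxidase of the cytosol and mitochondria, had 8695. These genes are the selenoproteins of the set. In their coding sequences a TGA triplet inside the reading frame is read as selenocysteine and not as stop, and the other 6 genes have no such triplet. The coding strands around it are shown because this codon sets the pair apart from the other members, with the TGA in capitals and lower case for the codons on each side.
GPX1: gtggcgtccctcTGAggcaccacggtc
GPX4: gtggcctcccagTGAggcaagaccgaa
In GPX1 it is codon 49, on the minus strand of GRCh38 chromosome 3 at chr3:49358132-49358134. In GPX4 it is codon 73, on the plus strand of chromosome 19 at chr19:1105403-1105405, counted from the start codon of the canonical transcript, which carries a mitochondrial targeting sequence. GENCODE 44 annotates a selenocysteine in 25 genes, of which 23 could be matched to a row. Among those 23, GPX4 ranked 1 and GPX1 ranked 2 by mean, followed by the thioredoxin reductase gene TXNRD1 at 4508, and the median was 984. The genes without a match were not ranked. A row whose symbol had become a date or number could not be matched, so a deposited value may have been missed. GPX4 and GPX1 kept ranks 1 and 2 per kilobase of canonical transcript, and TXNRD1 did not keep its place.

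Of the genes of cysteine synthesis, CBS had a mean of 4904 and CTH one of 1416. CBS lies on chromosome 21 of GRCh38 from 43053191 to 43076943, with 17 exons in its canonical transcript, and CTH on chromosome 1 from 70411218 to 70439851, with 12 exons. The value of CBS is uncertain, because the tables hold a separate row, CBSL, with a mean of 7098. When the canonical CBS transcript of 2495 bases was aligned to the GRCh38 sequence, it matched a second place on chromosome 21, from 6444869 to 6467513, over its whole length with 1 mismatch. Reads from CBS and from this copy can therefore hardly be told apart, and RefSeq now lists CBSL as another name of CBS. CBS held 40.9% of the 2 rows together and CBSL 59.1%. Summed, they came to 12002, which is 2.45 times the CBS row alone. With this sum CBS and not GPX4 was the highest of the 8 genes. How the authors counted reads that match both places is not given in the sources used here. If such reads entered both rows, the sum counts them more than once. CBS exceeded CTH 3.46-fold on its own row and 8.48-fold with the copy added, on means that are not divided by length.

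Of the subunits of glutamate cysteine ligase, GCLM had a mean of 1905 and GCLC one of 1370, but the GCLM transcript is the longer, with 4883 against 3785 bases. Per kilobase of canonical transcript the means were 390 for GCLM and 362 for GCLC, a ratio of 1.08, and these were the lowest of the 8 genes on this scale. With all exons joined as the length they were further apart, at 351 for GCLM and 159 for GCLC. GCLM lies on chromosome 1 from 93885199 to 93909456 and GCLC on chromosome 6 from 53497341 to 53616970. An antisense gene, GCLC-AS1, overlaps the exons of the canonical GCLC transcript by 252 bases, and whether the authors' counting used the strand is not given in the sources used here. GSS, on chromosome 20 from 34928432 to 34956027, had a mean of 1698, or 890 per kilobase. GSR, on chromosome 8 from 30678066 to 30727846, had a mean of 2591, or 854 per kilobase. GSR was thus higher than GSS before division by length and slightly lower per kilobase of canonical transcript. It was higher than GSS per kilobase with the longest transcript (854 against 563) and with all exons joined (719 against 275).

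Per kilobase of canonical transcript the 8 genes spanned a 32.8-fold range. GPX4 reached 11859 and GPX1 9672, since their transcripts of 851 and 899 bases are the shortest of the set, and they exceeded 99.0% and 98.7% of the 17899 rows whose gene length was known. CBS followed with 1965 (4810 with CBSL added), and CTH had 678. The order of GPX4 and GPX1 turned when the length of all annotated exons joined was used, with 5485 for GPX4 and 6072 for GPX1. GSS moved most among the other genes, from 890 with the canonical transcript to 563 with the longest transcript and 275 with all exons joined, and it then ranked 4, 6 and 7 of the 8. GPX1 also has a second match at the 95% identity used here, on chromosome X from 13378525 to 13379387, over 96.9% of its transcript at 97.5% identity, and a same-strand annotated gene covers 572 of its exonic bases. No second match passing the same limits was found on the assembled chromosomes for CTH, GCLC, GCLM, GSS, GSR or GPX4.

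**Figure D2:**
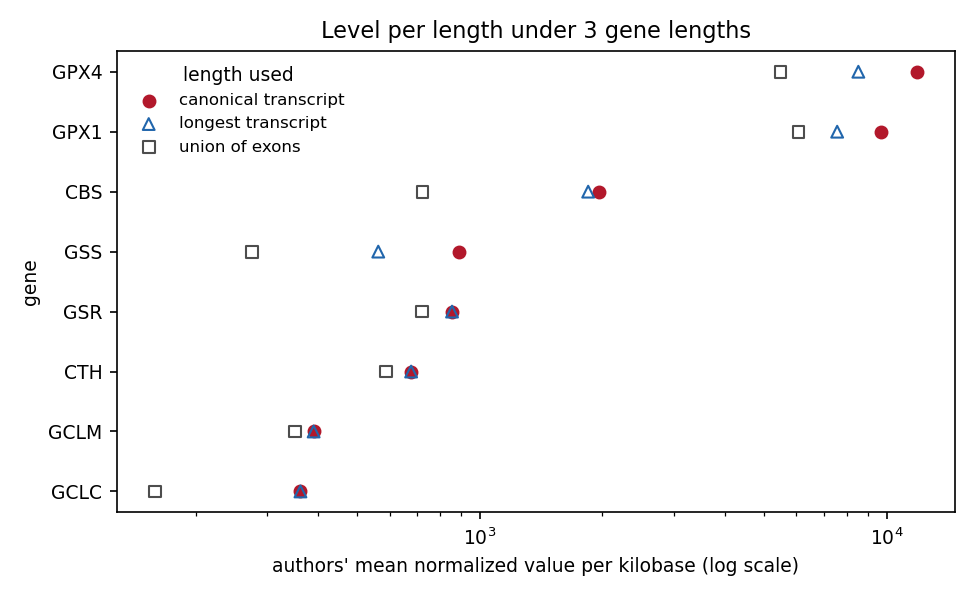
The authors' mean normalized value divided by gene length in kilobases (horizontal axis, log scale) is plotted for each of the 8 genes (vertical axis) with the canonical transcript (red circles), the longest transcript (blue triangles) or all exons joined (open squares) as the length. GPX4 and GPX1 are the highest with each length, between 5485 and 11859, and GCLC is the lowest with each, between 159 and 362.

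The promoters of these genes were searched for the sites of transcription factors that are known to act on thiol metabolism or in the unfolded protein response. RefSeq promoters (GRCh38.p14, 250 bases before to 50 after a start) were at hand for 6 of the 8 genes, without GSS and GSR. The core of the antioxidant response element, TGACNNNGC on either strand, which NRF2 binds with a small MAF protein, was present in promoters of 2 of these 6 genes, GCLM and CBS, against 16.1% of all 27305 genes with a promoter. In GCLM it lay from 34 to 26 bases before the start (positions -34 to -26). In CBS it lay from 83 to 75 bases before 1 of its 3 annotated starts (positions -83 to -75). That start is not the one of the canonical CBS transcript, which begins at 43075835, outside this promoter (chr21:43076328-43076627). The matches are printed because they are the places where the searched letters occur. They are written along the strand of the gene with the match in capitals, and in both genes the core itself reads on the opposite strand.
GCLM: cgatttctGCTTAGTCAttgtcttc
CBS: ggctctggGCGCGGTCAcgcggggc
The GCLM window is chr1:93909448-93909472 and the CBS window chr21:43076444-43076468, both on the minus strand. The core TGATGNAA, bound by ATF4 with a C/EBP factor, was found in 0 of the 6 genes, against 4.46% of all genes. The ER stress response element, bound by ATF6 with NF-Y, was also found in 0 of the 6, against 0.0916% of all genes. A match describes these letters only, and its absence says that they are not in this window.

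Other genes of thiol metabolism were described from a list of 35, all of which had a row. Of these, 30 had a mean above that of the median row, 3 had a mean above that of GPX4, 16 lay between the lowest and the highest of the 8 genes, and 16 lay below GCLC. The list's median was 1694, against 2248 for the 8 genes. The highest were the peroxiredoxin gene PRDX6 at 13681, the S-adenosylhomocysteine hydrolase gene AHCY at 13602, the glutathione transferase gene GSTP1 at 13391, the pentose phosphate enzyme gene PGD at 9087 and the thioredoxin gene TXN at 8107. AHCY makes the homocysteine that CBS consumes, and PGD makes NADPH, which GSR uses. The lowest were GGT1 at 66.6, which encodes a glutathione-cleaving enzyme of the cell surface, SQOR at 26.3 (listed under its older symbol SQRDL), a mitochondrial enzyme that oxidizes hydrogen sulfide, GPX2 at 2.50, GPX7 at 0.546 and OPLAH, which encodes 5-oxoprolinase, at 0.349. Of the glutathione peroxidase genes that are not among the 8, GPX8 had 2135 and GPX3 had 555. These means are not divided by length.

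**Figure D3:**
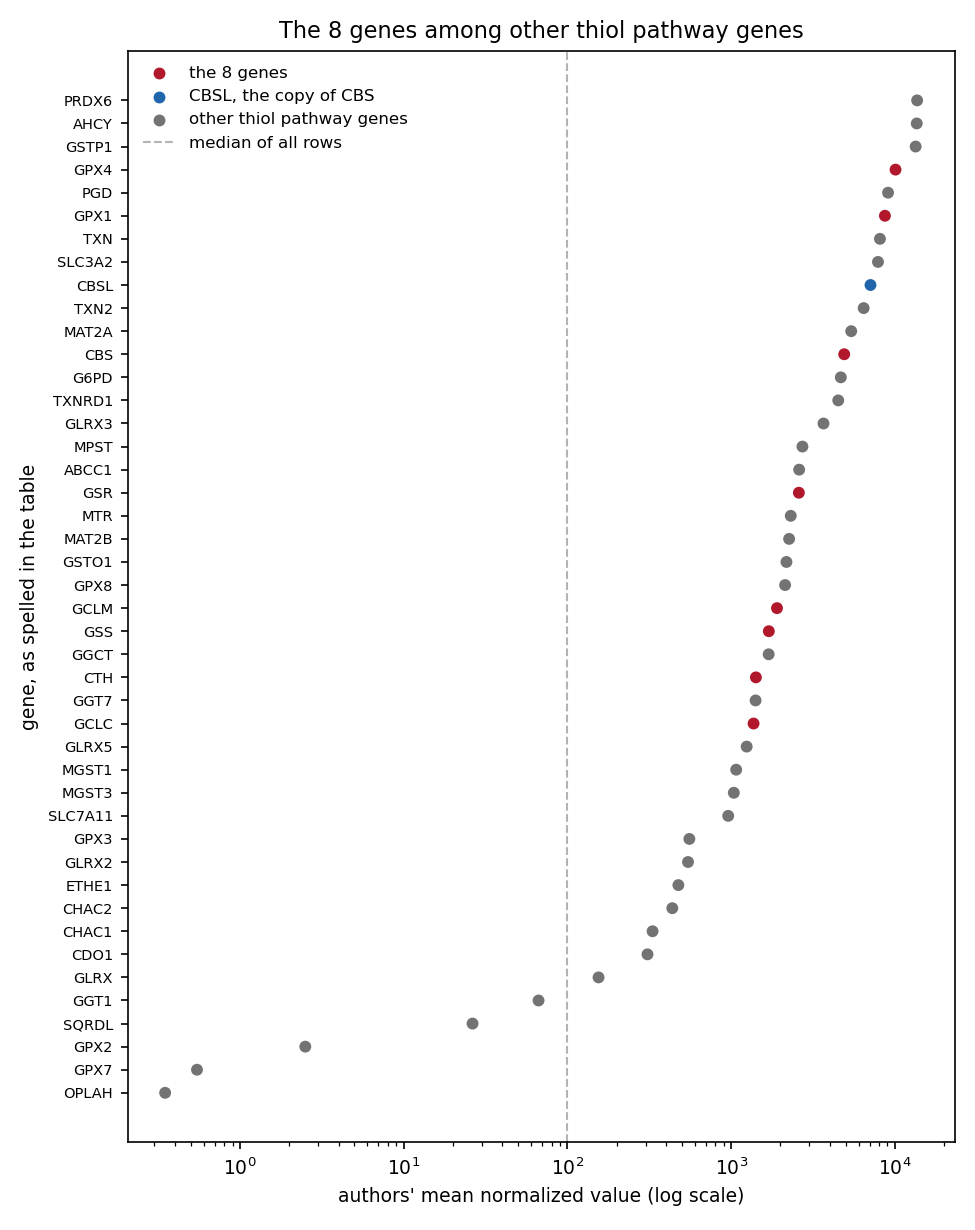
The authors' mean normalized value (horizontal axis, log scale) is plotted for the 8 genes (red), CBSL (blue) and 35 other genes of thiol metabolism (grey), sorted by mean (vertical axis), with the median of all rows, 99.5, as a dashed line. The 8 genes lie in the upper part, from GCLC at 1370 to GPX4 at 10092, and 5 of the grey genes lie below the dashed line.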

How the data were processed

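RNA from 12 samples of HEK293T cells in 4 groups was sequenced. Per the paper's methods, the authors aligned reads with DNAstar SeqManPro to GRCh38, quantified them with ArrayStar and QSeq, and fitted them with DESeq2 (version 1.40.1 in the submitters' processing notes). Each of 3 tables of 23292 rows gives as its deposited signal 1 mean a gene, which the authors took across every sample after scaling with size factors, and only this column was used. The other columns hold the authors' own fold changes, standard errors, statistics and p-values for each compound against vehicle, and were not used. This column shows no depth or spread per sample beyond the nominal read number in the methods, and no groups were compared. The methods state that RPKM values entered the authors' fit. However, the deposited signal multiplied by transcript length in kilobases summed to 120 M, where RPKM would give about 1 M.

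Of the symbols, 23 had become dates or numbers in every table and were left out. The rank of a gene is the share of rows with a lower mean. Lengths came from GENCODE 44 (GRCh38), matched by symbol or RefSeq synonym for 96.2% of rows with a mean of at least 100 (76.9% of all rows), and the main length was that of the canonical transcript. Copies were sought with minimap2 2.31 (identity of at least 95% over at least 50% of the transcript). Ranking and the motif search were tested on simulated data. The genes described are the 8 members, the selenocysteine genes, the cell type marker genes, and the 5 highest and 5 lowest of a list of 35. GPX8, GPX3, TXNRD1 and CBSL were named after their values were seen. The members and lists were chosen with earlier results of these data known. Protein sequences were not used here.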

Additional observations from a re-analysis of the deposited data

How the results depend on the processing

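Of 46 recomputed values, 38 stayed within 1.5 times the reported one and 8 did not. The shares of rows among them were already too high to rise 1.5-fold, so for these the count says little. For CBS with CBSL added, the share went from 93.8% to 98.2% and was counted as staying, although the mean rose 2.45-fold. The median share of rows below the 8 genes was 85.4% among all rows with a symbol, 78.2% among rows with a mean of at least 10 and 85.4% with the 23 altered symbols included. The values that moved were those per kilobase of CBS, GCLC, GSS, GPX1 and GPX4 when all exons were joined, of GSS with the longest transcript, and of CBS, with and without division by length, when CBSL was added, an alternative chosen after seeing the data. The joined exons are longer than any single transcript, which lowers every value per kilobase. Of the 6 members with a promoter, the number with each motif was the same when the bases after the start were left out, while the share of all promoters with the antioxidant response element core fell from 13.3% to 10.9%. No paired analysis was possible because the column used is a mean over all samples and carries no replicate, and for the same reason no replicate could be left out.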
